A study of Mus musculus with 6 samples.

Results

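The immunity-related GTPases are a family of interferon-inducible GTP-binding proteins, followed here through 7 mouse genes: Iigp1, Igtp, Irgm1, Irgm2, Ifi47, Tgtp1 and Tgtp2. They were taken by gene symbol, and all 7 were found among the 28692 genes of the deposited tables. The cells were live CD45-positive leukocytes, sorted as DAPI-negative from the central nervous system of C57BL/6 mice of day 0, 13 or 21. In the mice of the later days, EAE (experimental autoimmune encephalomyelitis, in which the immune system is made to attack myelin) had been started 13 or 21 days earlier. The labels do not say what the mice of day 0 had received. Mice were wild type (WT) or miR-155KO (KO), without the microRNA miR-155, and gave 1 droplet library of 3' ends per genotype and day, 6 libraries in all, each described by the submitters as 5 mice. The labels name the tissue as brain and their protocol also names spinal cord. The labels tie the loss of miR-155 to no cell type, and they do not say whether the mice of a group were pooled.

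Interferon gamma, acting through its receptor and JAK kinases, is the classical inducer of these GTPases, and type I interferons can raise them as well. The family has regulators and effectors. Irgm1, Irgm2 and Igtp sit on the cell's own membranes and keep the effectors inactive there, whereas Iigp1, Ifi47, Tgtp1 and Tgtp2 are effectors that load onto the vacuoles of intracellular parasites and bacteria and disrupt them, together with guanylate-binding proteins and the autophagy conjugation machinery. In the inflamed nervous system, microglia and infiltrating myeloid cells respond to interferon gamma released by lymphocytes.

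RefSeq windows of GRCm38.p6, 250 bases before to 50 after the annotated start, were at hand for 6 of the 7 genes, all but Iigp1. They are shown because 2 short motifs bound by interferon-activated factors could be looked for in them on both strands. The core of the interferon-stimulated response element, searched as GAAA, any 2 bases and GAAA again, was present in 5 of 6 windows, against 3.44% of 32851 windows of the same length. The gamma-activated sequence, TTCNNNGAA, was present in 4 of 6 windows (Igtp, Irgm2, Tgtp1 and Tgtp2), against 8.30% of all windows. The 6 windows are not independent of each other. Those of Igtp and Irgm2 share an identical stretch of 61 bases, and those of Tgtp1 and Tgtp2 one of 27 bases. Counts of windows with a motif thus count related sequence more than once. The window of Ifi47 held neither string of letters. The stretches below are read 5′ to 3′ on the strand of the gene, and the capitals mark the response-element core.
Igtp: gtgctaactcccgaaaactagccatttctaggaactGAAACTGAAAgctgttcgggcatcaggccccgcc
Irgm2: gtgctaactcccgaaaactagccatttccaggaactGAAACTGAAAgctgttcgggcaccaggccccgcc
Irgm1: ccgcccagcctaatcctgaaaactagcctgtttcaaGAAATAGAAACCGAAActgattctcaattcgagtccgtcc
Tgtp1: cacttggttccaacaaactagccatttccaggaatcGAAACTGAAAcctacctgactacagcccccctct
Tgtp2: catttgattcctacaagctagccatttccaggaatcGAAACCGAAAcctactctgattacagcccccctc
These stretches lie at chr11:58199486-58199555 (Igtp), chr11:58214877-58214946 (Irgm2), chr11:48871411-48871486 (Irgm1), chr11:48992290-48992359 (Tgtp1) and chr11:49064249-49064318 (Tgtp2). The form with CT as the middle bases stood in 3 of the windows, those of Igtp, Irgm2 and Tgtp1, and in 0.231% of all windows. In Igtp the core began at position -34 from the start, and in Irgm2, Tgtp2 and Tgtp1 at -64, -70 and -77. Irgm1 had a pair of overlapping cores that began at -30 and -24. In the 4 windows that held both motifs, the gamma-activated sequence lay just upstream of the core. A match is a description of the letters, and no binding was measured.

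**Figure D1:**
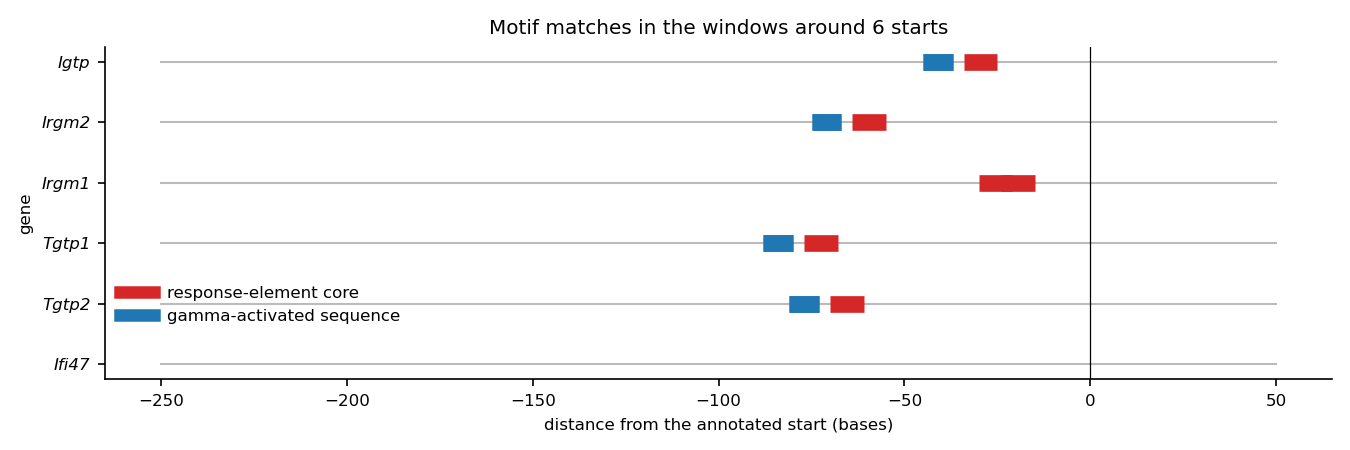
Positions of the response-element core (red) and the gamma-activated sequence (blue) in the RefSeq windows of 6 members, in bases from the annotated start (vertical line). In 4 genes the blue match lies just upstream of the red one, Irgm1 has 2 overlapping red matches and Ifi47 has neither motif.

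In the GENCODE vM21 annotation of GRCm38 (mm10), 6 of the 7 genes lie on chromosome 11 and Iigp1 lies on chromosome 18 (chr18:60376027-60392634, plus strand). The first group on chromosome 11 runs from Irgm1 (chr11:48861968-48871683, minus strand) over Tgtp1 (chr11:48985327-48994172, minus) and Tgtp2 (chr11:49057194-49064206, minus) to Ifi47 (chr11:49076587-49096974, plus). A second group, 9103 kb further on, holds Igtp (chr11:58199556-58207591, plus) and Irgm2 (chr11:58199618-58222782, plus), whose annotated spans overlap on the same strand. The longest transcripts of Tgtp1 and Tgtp2 were 99.8% identical over 2810 bases, and all 403 words of 98 bases in their last 500 bases were shared. Counts of Tgtp1 and Tgtp2 are therefore uncertain as to which of the pair they belong to. How reads that match both were counted was not examined, so low counts of the pair need not mean low expression. Igtp and Irgm2 were 82.2% identical over 1574 aligned bases and shared 0 of 403 such words.

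The libraries held 6321841 to 24243660 unique molecular identifiers (UMIs), the counts of single captured transcripts, over 20030 barcodes, with medians of 3019 to 4368.5 UMIs per cell. Of these barcodes 20007 were kept, and 207 barcode sequences occurred in 2 or more libraries, on 414 cells. Mir155hg, the host transcript of miR-155, was counted 2, 45 and 59 times in WT on days 0, 13 and 21, and 0, 0 and 1 times in KO. On the same days the 7 members together came to 1235, 14237 and 9468 UMIs for WT and to 867, 12366 and 2897 UMIs for KO. Cells were put into classes by the number of marker genes detected in each cell. The classes held 6338 microglia-like, 2564 T-like, 2539 neutrophil-like, 2479 monocyte/macrophage-like, 1493 B-like, 364 natural killer (NK)-like, 326 plasmacytoid dendritic-like and 304 conventional dendritic-like cells. Another 2723 cells (13.6%) passed for more than 1 lineage and were left out, as possible doublets. On day 21 they made up 21.5% of the WT and 7.55% of the KO cells kept. The rest were 358 progenitor-like, 62 basophil-like and 457 unassigned cells. All 12 microglial markers had UMIs in the microglia-like cells of every library. They are the markers by which these cells were classed, so this does not test the class. Levels are given as CPM, the UMIs of a gene over all UMIs of the class in that library on the usual scale, for classes with 50 or more cells there.

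In microglia-like cells the family was at a low level on day 0, rose strongly by day 13 in both genotypes and was lower again on day 21, by more in the KO library than in the WT library. Among the regulators, Igtp began at 46.7 (WT) and 50.2 (KO) CPM, reached 221 and 251 CPM on day 13, and stood at 140 and 68.9 CPM on day 21. Irgm1 stood at 31.9 and 32.3, then 88.4 and 88.0, then 45.3 and 39.0 CPM in the same order. Irgm2 ran from 17.3 to 35.4 CPM. Both day 13 libraries lay above every other library for each of these 3 genes. Among the effectors, Iigp1 began at 1.5 and 0.471 CPM, reached 323 and 394 CPM on day 13, and stood at 186 and 35.8 CPM on day 21. Ifi47 had 3.43 and 1.18 CPM, then 85.1 and 102 CPM, then 62.4 and 12.1 CPM. For both effectors the KO library was the higher one on day 13 and the lower one on day 21. Tgtp2 reached at most 8.51 CPM and Tgtp1 at most 3.96 CPM, with 0 UMIs of Tgtp1 in both day 0 libraries.

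The starting level in other classes differed between genes. Ifi47 was already at 190 (WT) and 245 (KO) CPM in T-like cells on day 0 and stayed between 158 and 276 CPM in all 6 libraries. In monocyte/macrophage-like cells Ifi47 was at 256 CPM in the WT library of day 0, at 417 and 397 CPM on day 13, and at 375 (WT) and 171 (KO) CPM on day 21. In these classes Ifi47 was thus at 190 CPM or more on day 0, whereas in microglia-like and neutrophil-like cells it was at 8.61 CPM or less on day 0. Iigp1 was at or near 0 on day 0 in every class with enough cells, the highest being 6.33 CPM in WT T-like cells. On day 13 Iigp1 reached 449 (WT) and 255 (KO) CPM in monocyte/macrophage-like cells, 158 and 165 CPM in conventional dendritic-like cells, 88.4 and 160 CPM in T-like cells, 36.1 and 24.2 CPM in B-like cells, and 18.5 and 21.4 CPM in neutrophil-like cells. NK-like cells had Iigp1 at 0 UMIs in 4 of the 5 libraries that held 50 or more of them and at 3.57 CPM in the fifth. Their Ifi47 ran from 132 to 248 CPM. The only day 13 library among the 5 was KO, with 52 cells. B-like and neutrophil-like cells also had 0 UMIs of Iigp1 on day 0. On day 21 those classes stood at 19.4 and 8.46 CPM (WT) and at 2.94 and 0.862 CPM (KO).

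Igtp in T-like cells rose from 80.2 (WT) and 45.5 (KO) CPM on day 0 to 252 and 315 CPM on day 13. In B-like cells it went from 14.6 and 38.8 to 129 and 114 CPM, and in neutrophil-like cells from 7.65 and 2.99 to 69.3 and 72.9 CPM. Both day 13 libraries lay above both day 0 libraries in each of these classes. Irgm1 ran from 31.5 to 56.4 CPM over the 6 libraries in T-like cells and from 29.2 to 60.6 CPM in B-like cells.

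**Figure D2:**
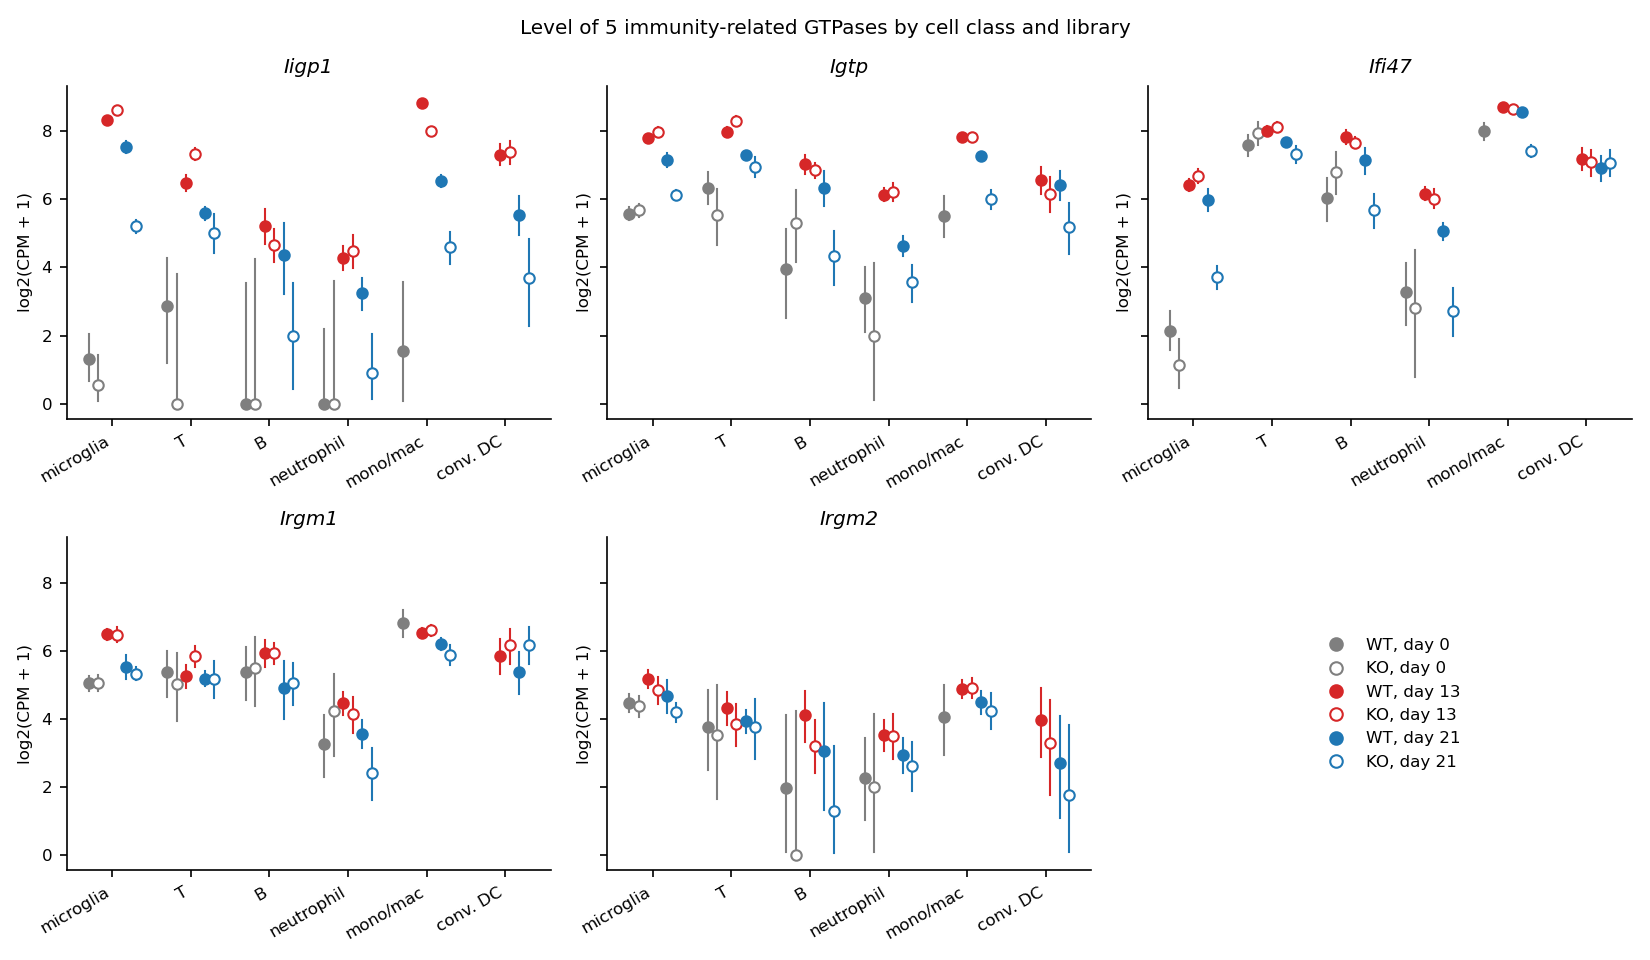
Level of 5 members, as log2(CPM + 1), in 6 cell classes. Each point is 1 library (filled WT, open KO; grey day 0, red day 13, blue day 21) with its exact 95% Poisson interval for counting error, and classes with fewer than 50 cells in a library have no point. Iigp1 is near 0 on day 0 in all classes shown, whereas Ifi47 in T-like cells is between 158 and 276 CPM in all 6 libraries.

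The order of the classes was compared within libraries for the 4 classes that had 50 or more cells in all 6, by an exact two-sided sign-flip permutation test of the log2(CPM + 1) difference between neighbours, over 21 pairs, 3 per gene. None of the 21 pairs passed after Benjamini-Hochberg adjustment. With 6 libraries the smallest p is 0.03125, which became 0.0729 after adjustment. In 9 pairs the difference had the same sign in 6 of 6 libraries. Ifi47 was ordered T-like, B-like, microglia-like and neutrophil-like, from high to low. Its B-like level exceeded that of microglia-like cells by 2.51 (SD 1.88, n = 6 libraries) on the log2 scale (exact permutation p = 0.03125). Microglia-like and neutrophil-like cells did not differ beyond their spread for Ifi47 (difference 0.00737, SD 1.13, n = 6, exact permutation p = 1). The microglia-like level of Ifi47 was the lower one in both libraries of day 0 (3.43 against 8.61 CPM in WT, 1.18 against 5.97 CPM in KO) and the higher one in the 4 libraries of days 13 and 21. Igtp was ordered T-like, microglia-like, B-like, neutrophil-like, and its excess in microglia-like over B-like cells was 1.08 (SD 0.55, n = 6, exact permutation p = 0.03125). Irgm2 was highest in microglia-like cells in 6 of 6 libraries, 0.76 above T-like cells (SD 0.20, n = 6, exact permutation p = 0.03125). Iigp1 had no neighbouring pair with the same sign in every library.

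Day 13 was set against day 0 with edgeR's quasi-likelihood test on summed UMIs, with genotype as covariate and 2 libraries per day, and p-values adjusted by Benjamini-Hochberg over all genes tested in the class. Nothing in the labels gives separate cultures or batches for the mice, and the library titles of a day share a number prefix, so that a batch, if the prefix marks one, and the day cannot be told apart. In microglia-like cells all 6 members tested rose (Tgtp1 was too low to be tested), where 17.0% of 10572 genes rose. Each SE of an edgeR difference was derived from the test, as the absolute log2 difference over the square root of its F statistic. The log2 difference was 8.87 ± 0.74 (SE) for Iigp1 (adjusted p = 1.33e-05), 5.62 ± 0.59 for Ifi47 (adjusted p = 5.85e-05) and 2.52 ± 0.27 for Igtp (adjusted p = 6.48e-05). It was 1.69 ± 0.15 for Irgm1 (adjusted p = 2.09e-05), 0.86 ± 0.19 for Irgm2 (adjusted p = 0.00563) and 5.10 ± 0.78 for Tgtp2 (adjusted p = 0.00063). The effectors thus had log2 differences above those of the regulators in microglia-like cells, from day 0 counts of 9 UMIs for Iigp1 and 2 UMIs for Tgtp2 over both libraries. The ratio of counts pooled over WT and KO was 344 (95% interval 181 to 754) for Iigp1 and 33.6 (8.68 to 287) for Tgtp2. These intervals cover counting error only, not the spread between libraries or genotypes. Tgtp1 was at least 10.0-fold higher against a floor of 3 counts over both day 0 libraries.

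In T-like cells 2 of 5 members tested rose from day 0 to day 13, Iigp1 (log2 difference 4.70 ± 0.58, adjusted p = 3.7e-06) and Igtp (1.93 ± 0.24, adjusted p = 4.43e-06), where 9.24% of 8012 genes rose by edgeR. Iigp1 rested on 3 UMIs on day 0 there, and the ratio of its pooled counts was 30.4 (95% interval 10.3 to 148, counting error only). Ifi47, whose level was high from the start, had a log2 difference of 0.13 ± 0.19 in T-like cells (edgeR adjusted p = 0.71). In B-like cells 3 of 4 members tested rose, where 8.6% of 5731 genes did: Igtp by 2.79 ± 0.49 (edgeR adjusted p = 0.000648), Ifi47 by 1.76 ± 0.36 (adjusted p = 0.00208) and Iigp1 (adjusted p = 0.00116). In neutrophil-like cells 3 of 5 rose, where 7.86% of 7186 genes did, namely Igtp, Ifi47 and Iigp1, and without the WT library of day 0 the count was 1. Iigp1 had 0 UMIs on day 0 in B-like and neutrophil-like cells, so its rise there was at least 5.25-fold and at least 8.98-fold against a floor of 3 counts over both day 0 libraries.

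On day 21 against day 0, 5 of 6 members tested were higher in microglia-like cells by edgeR, where 8.46% of genes were: Iigp1 (6.78 ± 0.77, adjusted p = 0.00025), Ifi47 (3.90 ± 0.68, adjusted p = 0.0036), Tgtp2 (3.55 ± 0.93, adjusted p = 0.0302), Igtp (1.29 ± 0.27, adjusted p = 0.0115) and Irgm1 (0.62 ± 0.16, adjusted p = 0.0293). The count was lower without either library of day 0, which leaves 1 library for that day, and was 3 by DESeq2. In those fits the number of all genes called higher was lower as well. Iigp1 (3.34 ± 0.69, adjusted p = 0.00259) and Igtp (1.01 ± 0.25, adjusted p = 0.0129) were higher in T-like cells by edgeR, 2 of 5, where 5.15% of genes were, and 1 of them passed without the KO library of day 0 or the WT library of day 21. None passed in B-like cells (4.31% of genes did) or neutrophil-like cells (0.946% did) by edgeR or DESeq2. There 2 and 3 members had an unadjusted edgeR p under 0.05, and the share of all genes under it is not given here for these classes. Without the KO library of day 21, members passed in each of these classes. Members also passed in B-like cells without the KO library of day 0 or either library of day 13, and in neutrophil-like cells without the WT library of day 13. Such a fit leaves 1 library for the day, and its share of all genes called is not given here for these classes.

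From day 13 to day 21 every member tested had a negative log2 difference in every class fitted, and few of these differences passed. In microglia-like cells all 6 log2 differences were negative, from -0.63 ± 0.20 for Irgm2 to -2.09 ± 0.47 for Iigp1, and only Irgm1 fell (-1.07 ± 0.16, edgeR adjusted p = 0.0257), where 0.501% of genes fell. That count of 1 became 5 without the WT library of day 21, 4 without the WT library of day 0 or of day 13, 3 without the KO library of day 0 and 2 without the KO library of day 21. The number of all genes that fell went from 53 to between 36 and 812 over these 6 fits. Iigp1 fell in monocyte/macrophage-like cells (-2.81 ± 0.29, edgeR adjusted p = 0.0171, 1 of 7 members, where 0.664% of genes fell; 0 without cells that had a T cell marker) and in conventional dendritic-like cells (-2.40 ± 0.36, adjusted p = 0.0006, 1 of 4, where 1.36% fell; 0 without cells that had a T cell marker, at an adjusted p of 0.0871). Without those cells edgeR called 0 genes lower in either class. Iigp1 (-1.36 ± 0.25, adjusted p = 0.00377) and Igtp (-0.92 ± 0.18, adjusted p = 0.00702) fell in T-like cells by edgeR, 2 of 5, where 1.37% fell. DESeq2 called 0 of them, and edgeR called 1 without the KO library of day 13 or of day 21. Igtp and Ifi47 fell in neutrophil-like cells, 2 of 5, where 1.6% of genes fell by edgeR, and 1 passed without the KO library of day 13. In B-like cells 0 of 4 passed by edgeR and by DESeq2, and 0.541% of genes fell, although all 4 had an unadjusted edgeR p under 0.05. The share of all genes under that p is not given here for B-like cells. In microglia-like cells it held for 1569 of 10572 genes in this comparison. In B-like cells members passed without the WT or the KO library of day 0, the WT library of day 21 or the WT library of day 13. Of the fits without a library, the number of all genes that fell is given here only for microglia-like cells. The comparisons of days share libraries, and each class holds different clusters on different days.

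**Figure D3:**
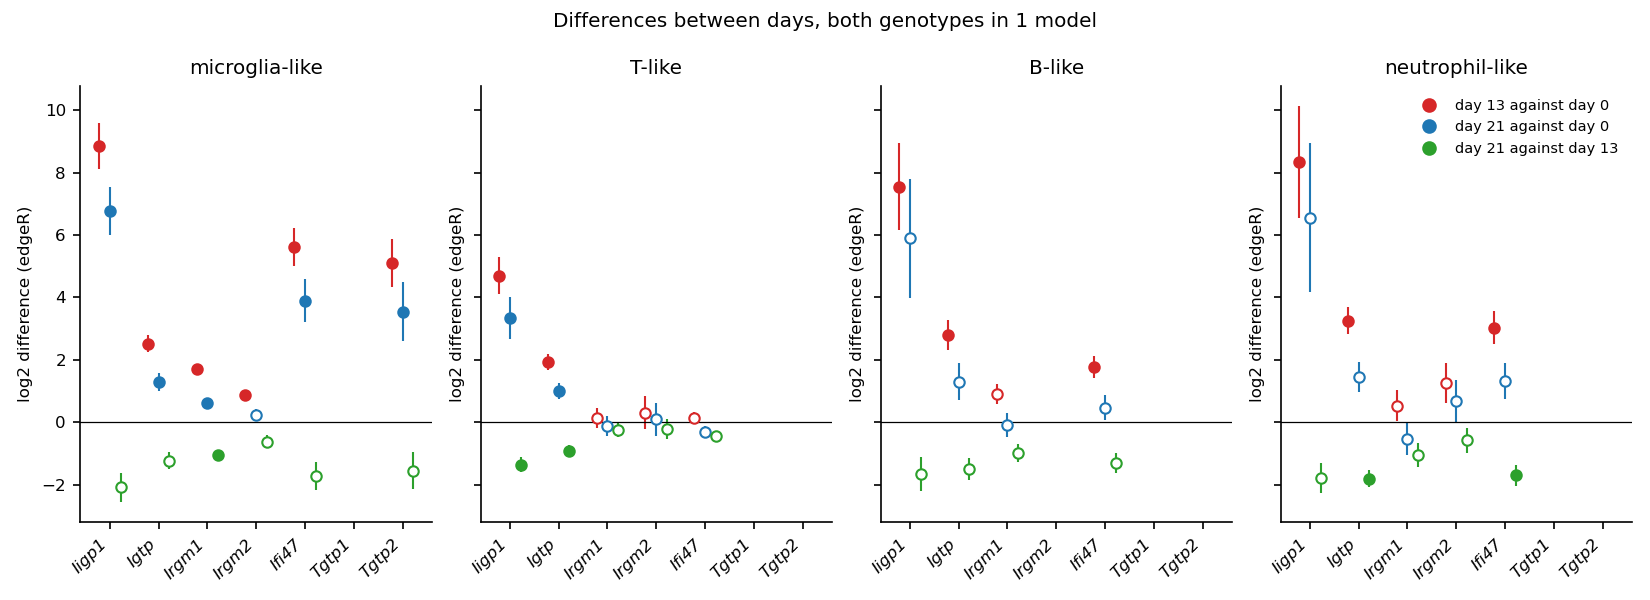
Log2 differences between days for each member in 4 classes, from edgeR with genotype as covariate, with the SE derived from the F statistic as bars. Filled points passed a Benjamini-Hochberg adjusted p of 0.05 and open points did not; members with no point were too low to be tested. In microglia-like cells all 6 members tested are above 0 on day 13 against day 0, Iigp1 by 8.87.

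The question of the study, what loss of miR-155 does to each leukocyte population, was asked of the members first over all days. With day as a block, edgeR called 0 members between KO and WT in each of the 6 classes fitted, and DESeq2 also called 0. Of all genes in KO microglia-like cells, 0.0473% were called higher and none (0.0%) lower. The shares called higher and lower were 0.0% and 0.0% in monocyte/macrophage-like, 0.059% and 0.0% in conventional dendritic-like, 0.275% and 0.137% in T-like, 0.0174% and 0.0% in B-like, and 0.0278% and 0.0% in neutrophil-like cells. Iigp1 had a log2 difference of KO minus WT of -1.0 ± 0.46 in microglia-like cells (unadjusted p = 0.0504, edgeR adjusted p = 1) and -1.28 ± 0.29 in monocyte/macrophage-like cells (unadjusted p = 0.00298, edgeR adjusted p = 1). An unadjusted p under 0.05 was also given to Igtp in conventional dendritic-like cells and to Ifi47 in neutrophil-like cells. The share of all genes under that p is not given here for these classes. In microglia-like cells the count of members called lower was 2 without the WT or the KO library of day 13, where 79 of 11022 and 86 of 10988 genes were then lower. In neutrophil-like cells it was 2 without the WT library of day 13 (137 of 7273 genes) and 1 without the KO library of day 13 (53 of 8049 genes). In T-like cells 1 member, Iigp1, was called higher in KO without the WT library of day 21 (0.85 ± 0.23, edgeR adjusted p = 0.0306, with 52 of 7815 genes) or without the KO library of day 21 (0.85 ± 0.23, edgeR adjusted p = 0.0382, with 48 of 9246 genes). In this model an effect that changes with day adds to the spread.

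Within a day, each KO library was then set against the WT library of that day, with no replicate and no test. Ratios are of CPM with exact 95% intervals that cover counting error only, and a member was counted as apart at 1.5-fold or more on the log2(CPM + 1) scale with 10 CPM or more in either library, a rule that Irgm1 in T-like cells of day 13 just missed at 37.4 (WT) and 56.4 (KO) CPM. On day 21 Igtp and Ifi47 were lower in the KO library by this rule in microglia-like, monocyte/macrophage-like, B-like and neutrophil-like cells, and no member was lower by it in T-like or NK-like cells. In microglia-like cells the ratio was 0.193 (0.159 to 0.233) for Iigp1, 0.193 (0.138 to 0.269) for Ifi47 and 0.491 (0.411 to 0.587) for Igtp, so 3 of 5 measured members were apart, where 5.76% of 7586 genes were lower by this rule. Irgm1 and Irgm2 had ratios of 0.861 (0.646 to 1.16) and 0.704 (0.470 to 1.08). The summed members stood at 463 (WT) and 176 (KO) CPM, a ratio of 0.379 (0.343 to 0.420). Igtp was the only regulator past 1.5-fold, and the measured effectors Iigp1 and Ifi47 both were.

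On day 13 the same microglia-like ratios were 1.22 (1.11 to 1.35) for Iigp1, 1.20 (0.990 to 1.45) for Ifi47, 1.14 (1.01 to 1.28) for Igtp and 0.995 (0.813 to 1.21) for Irgm1. None was apart by the rule, where 4.8% of genes were higher and 3.58% lower. On day 0 the summed members stood at 105 (WT) and 104 (KO) CPM. In the whole class the KO library was thus below the WT library by over 1.5-fold on day 21 and not on days 0 and 13, and the difference between days was not tested.

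**Figure D4:**
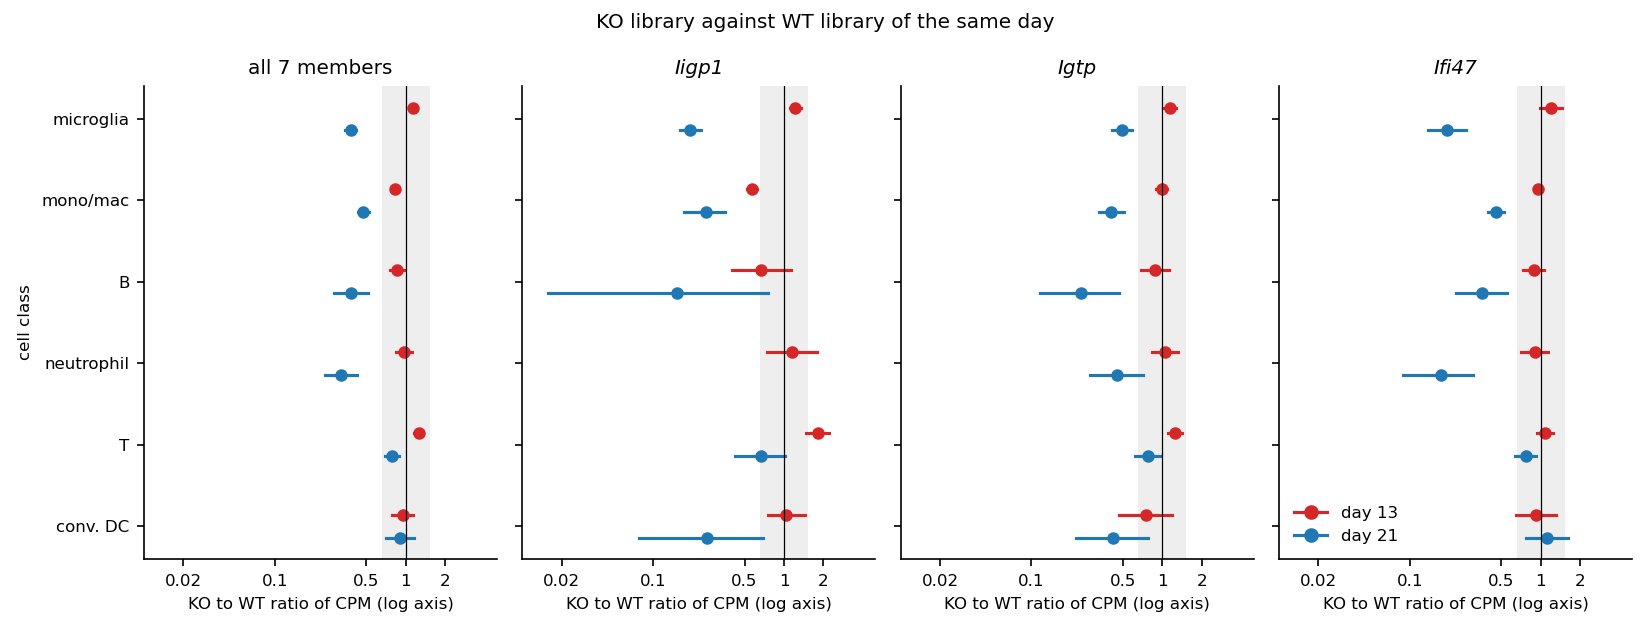
KO to WT ratio of CPM within day 13 (red) and day 21 (blue) for the summed members and 3 genes in 6 classes, on a log axis, with exact 95% intervals for counting error. The grey band marks less than 1.5-fold, and a gene under 10 CPM in both libraries has no point. On day 21 the summed members lie between 0.323 and 0.474 in microglia-like, monocyte/macrophage-like, B-like and neutrophil-like cells, and at 0.785 in T-like cells.

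In monocyte/macrophage-like cells of day 21, Iigp1 stood at 91.8 (WT) and 23.1 (KO) CPM, a ratio of 0.252 (0.173 to 0.356). Igtp stood at 154 and 62.8 CPM (0.408, 0.325 to 0.508) and Ifi47 at 375 and 171 CPM (0.456, 0.398 to 0.521). These 3 of 5 measured members were apart, where 7.74% of 6837 genes were lower. In this class Iigp1 was lower in the KO library on day 13 as well, at 449 (WT) and 255 (KO) CPM, a ratio of 0.568 (0.523 to 0.617), and it was the only one of 6 measured members apart, where 1.87% of 6561 genes were lower. Plasmacytoid dendritic-like cells of day 13 had a like ratio for Iigp1, 0.564 (0.389 to 0.818), from 161 and 90.8 CPM, and Irgm2, at 4 and 3 UMIs, made 2 of 5 measured members lower, where 14.3% of genes were. T-like cells of day 13 went the other way, with Iigp1 at 88.4 (WT) and 160 (KO) CPM, a ratio of 1.81 (1.47 to 2.22), the only 1 of 5 measured members higher by the rule, where 7.25% of genes were.

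T-like cells of day 21 had 0 of 5 measured members apart, where 8.97% of genes were higher and 7.38% lower, and a ratio of 0.785 (0.692 to 0.887) for the summed members. In B-like cells of day 21, Igtp stood at 80.2 (WT) and 19.1 (KO) CPM (ratio 0.239, 0.115 to 0.465) and Ifi47 at 58 and 34 UMIs (0.355, 0.225 to 0.551). With Iigp1, at 8 and 2 UMIs, they made 3 of 4 measured members lower, where 12.7% of genes were. In neutrophil-like cells of day 21 all 3 measured members were lower, where 18.6% of genes were: Igtp (0.453, 0.278 to 0.712), Irgm1 (0.398, 0.178 to 0.807) and Ifi47 (0.172, 0.0892 to 0.306). The median gene of neutrophil-like cells was itself at -0.22 on the log2 scale in this comparison. Conventional dendritic-like cells of day 21 had Iigp1 (0.259, 0.0776 to 0.690) and Igtp (0.423, 0.219 to 0.771) lower, where 16.7% of genes were, and Irgm1 higher (1.77, 0.987 to 3.22), where 19.7% were. NK-like cells of day 21 had summed members at 214 (WT) and 204 (KO) CPM, a log2 ratio of -0.07, which was 0.27 without cells of clusters led by markers of another class. Past 1.5-fold on few UMIs were Irgm2 in B-like cells of day 13 (14 and 12 UMIs, lower, as were 9.35% of genes), Irgm2 in conventional dendritic-like cells of day 13 (8 and 4 UMIs, lower, as were 16.3%) and Irgm1 in NK-like cells of day 21 (4 and 6 UMIs, higher, as were 22.3%). The interval of each of these 3 ratios spanned 1.

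On day 0 members of 4 classes were also past 1.5-fold, each with an interval that spanned 1. In B-like cells Igtp (5 WT and 8 KO UMIs, ratio 2.66, 0.767 to 10.3) and Ifi47 (22 and 23 UMIs, 1.74, 0.926 to 3.27) were higher in the KO library, as were 19.8% of genes. The summed members stood there at 122 (WT) and 194 (KO) CPM, so the B-like ratio was above 1 on day 0 (1.58, 1.0008 to 2.502) and below 1 on day 21. In T-like cells Igtp was lower (38 and 13 UMIs, 0.568, 0.277 to 1.09), as were 19.9% of genes. In NK-like cells Igtp (14 and 8 UMIs) and Irgm2 (3 and 1 UMIs) were lower, as were 26.4% of genes, and Irgm1 (2 and 5 UMIs) was higher, as were 23.6%. In neutrophil-like cells Irgm1 was higher (9 and 6 UMIs, 2.08, 0.610 to 6.55), as were 13.9% of genes.

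The microglia-like cells of the day 21 libraries fell into different clusters. The clusters were made without the members and without the interferon lists. Other genes with a pattern like that of the members, such as Psmb8 and Tap1, were not excluded. A cluster need not be independent of the interferon response. In the WT library 53.6% of them were in cluster 13, led by Ttr, Cxcl13, Ccl12, Hcar2 and Ccl7, and 35.8% in cluster 2, led by Slc2a5, Olfml3, P2ry12, Ltc4s and Tmem119. In the KO library 8.82% were in cluster 13 and 72.4% in cluster 2. Within cluster 13 the summed members stood at 628 (WT) and 513 (KO) CPM, a ratio of 0.817 (0.697 to 0.956). Within cluster 2 they stood at 173 and 144 CPM, a ratio of 0.833 (0.648 to 1.08). Both ratios were nearer 1 than the 0.379 of the whole class, and in both libraries cluster 13 was the higher one. Gene by gene within cluster 13, the ratio was 0.700 (0.545 to 0.895) for Iigp1, 0.488 (0.264 to 0.860) for Ifi47 and 0.942 (0.706 to 1.25) for Igtp. On day 13, when cluster 13 held 69.9% (WT) and 70.5% (KO) of microglia-like cells, its summed members stood at 823 (WT) and 1036 (KO) CPM. Cluster 2 did not keep 1 direction, with a ratio of 0.421 (0.278 to 0.633) on day 0, from 124 WT and 202 KO cells, and 1.26 (0.984 to 1.60) on day 13.

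Monocyte/macrophage-like cells could be compared within cluster 9, led by Cxcl10, Vcan, Fn1, F13a1 and Ms4a8a, on day 21. There the summed members stood at 876 (WT) and 378 (KO) CPM, a ratio of 0.432 (0.376 to 0.494), and the whole class had 0.474 (0.431 to 0.521). Cluster 9 held 55.2% of the WT and 39.8% of the KO cells of the class on day 21. Cluster 23 held 26.7% and 15.1%, with summed members at 614 (WT) and 469 (KO) CPM. Cluster 15, led by Ace, Treml4 and Ear2, held 27.1% of the KO cells, at 236 CPM, and under 5% of the WT cells. B-like cells of cluster 17, led by immunoglobulin genes such as Ighg2c and Igkc, had a ratio of 0.374 (0.269 to 0.516) on day 21. Neutrophil-like cells of day 21 had 0.375 (0.246 to 0.559) in cluster 6, 0.590 (0.311 to 1.06) in cluster 7 and 0.201 (0.0631 to 0.495) in cluster 8. T-like cells of cluster 19, led by Cd4, Tnfrsf4 and Cd28, had 1.20 (1.06 to 1.35) on day 13 and 0.796 (0.674 to 0.936) on day 21. Some cells of every class but the plasmacytoid dendritic-like one sat in clusters led by markers of another class. The leading genes of such a cluster held more markers of another class than of the cell's own, at times only 1 more. Cluster 1, led by Lpl, Folr2, Ccl8, Pf4 and Spp1, held 11.1% of the KO microglia-like cells of day 21. Without all such cells the log2 ratio of the summed members on day 21 was -1.31 in microglia-like cells (-1.39 with them), -1.05 in monocyte/macrophage-like cells (-1.07), -0.29 in T-like cells (-0.35), -1.32 in B-like cells (-1.37) and -0.99 in neutrophil-like cells (-1.60).

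**Figure D5:**
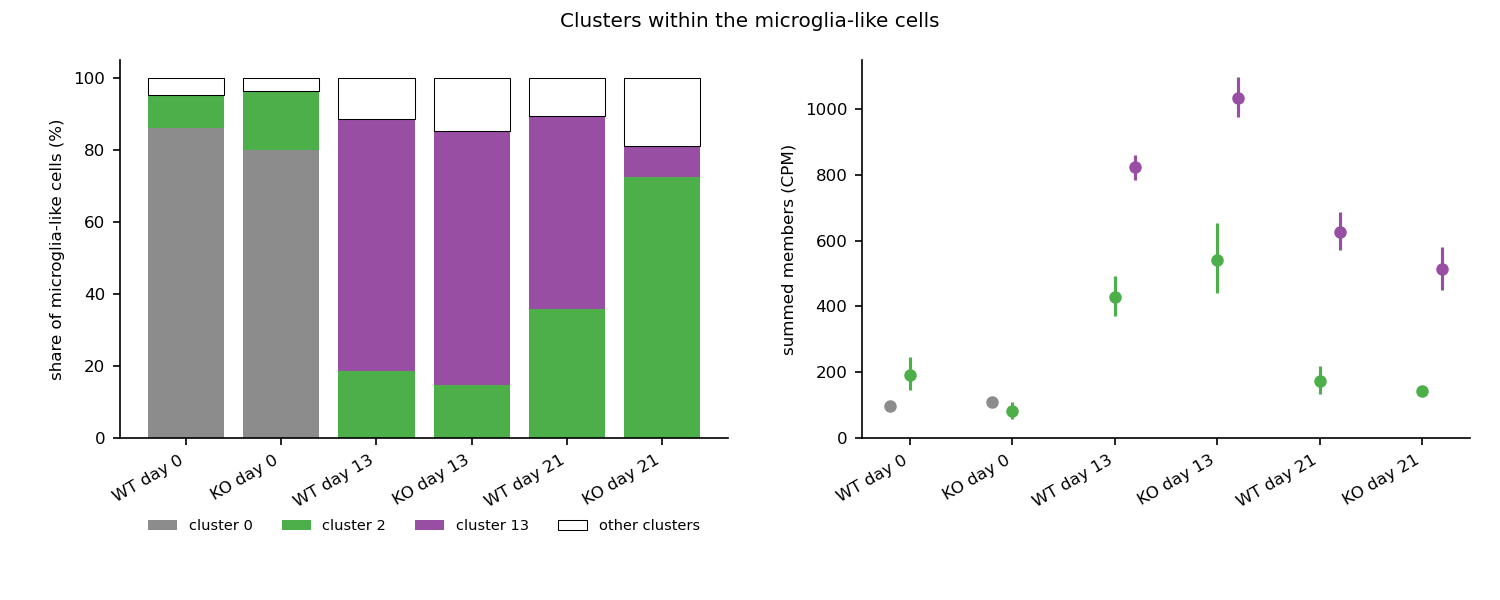
Left, share (%) of the microglia-like cells of each library in clusters 0, 2, 13 and all others. Right, summed level of the 7 members in CPM within those clusters, with exact 95% Poisson intervals. On day 21 cluster 13 holds 53.6% of the WT and 8.82% of the KO cells, and the level within it is 628 and 513 CPM.

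Markers of other cell types were also read in the same sums. In microglia-like cells of day 21, the 10 T cell markers summed to 127 CPM in the WT library and 21.6 CPM in the KO library, with 10 of 10 detected in both, against 15.3 to 42.1 CPM in the other 4 libraries. The 12 monocyte/macrophage markers summed to 752 (WT, 10 detected) and 285 CPM (KO, 12 detected), the 11 neutrophil markers to 2224 and 2249 CPM and the 12 microglial markers to 18231 and 26665 CPM. Without the myeloid cells that had any T cell marker, the log2 ratio of the summed members in microglia-like cells was -1.43, against -1.39 with them. In B-like cells of day 21, monocyte/macrophage markers summed to 2118 (WT) and 850 (KO) CPM, and without cells that had any microglial marker the log2 ratio went from -1.37 to -0.77. In neutrophil-like cells they summed to 13144 and 6536 CPM. The part of RNA from other cells in these ratios was otherwise not tested.

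Counted per cell, 17.5% (WT) and 19.6% (KO) of microglia-like cells had at least 1 UMI of any member on day 0, 65.0% and 71.0% on day 13, and 44.9% (95% interval 39.3 to 50.5) and 23.6% (21.5 to 25.8) on day 21, after each cell was thinned to 2000 UMIs. The exact binomial intervals cover counting error only. Without thinning the shares were 27.4% and 29.3%, 75.2% and 82.4%, and 48.1% and 32.1%. Cells with fewer UMIs were left out, at most 58 in a library except for 209 of 530 WT and 205 of 1757 KO cells of day 21. Cells with 3 or more UMIs of the members made up 13.4% (WT) and 2.13% (KO) of the thinned cells of day 21, and 20.6% and 28.2% on day 13. For comparison, neutrophil-like cells had the lowest shares of the 4 classes present in all 6 libraries, 4.59% and 5.71% on day 0 and 10.5% and 4.90% on day 21. The median depth before thinning was 3355 and 3646 UMIs in those neutrophil-like cells of day 21, and 2564 and 2842.5 UMIs in the microglia-like cells used. No class is known to lack these genes, so the share that free RNA gives could not be read from one.

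The other genes of the interferon pathway were followed from lists; 8 of 10 listed family relatives and 10 of 11 guanylate-binding proteins were matched, and Gm12250, Irgc and Gbp11 were not analysed here. The guanylate-binding proteins, partners of these GTPases on pathogen vacuoles, rose in 9 of 9 tested from day 0 to day 13 in microglia-like cells by edgeR (median log2 difference 5.97, against -0.02 over all genes), with Gbp4 at 7.65 ± 0.73 (adjusted p = 3.3e-05) and Gbp2 at 6.83 ± 0.60 (adjusted p = 1.78e-05). Of all genes tested there, 17.0% rose. On day 21, 8 of 8 guanylate-binding proteins measured were lower in the KO microglia-like library, where 5.76% of genes were. Their median log2 was -1.60 against 0.08 over all measured genes. Gbp2 stood at 351 (WT) and 82.2 (KO) CPM and Gbp8 at 53.5 and 8.63 CPM. In monocyte/macrophage-like cells of day 21, 6 of 7 measured were lower (median -1.42, against 0.04 over all genes), where 7.74% of genes were. Gbp5 stood there at 49.0 (WT) and 12.8 (KO) CPM and Gbp2 at 668 and 249 CPM.

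Of the interferon gamma pathway, the transcript of the ligand, Ifng, began at 33.8 (WT) and 31.5 (KO) CPM in T-like cells, followed by 41.2 and 31.5 CPM on day 13, then 38.1 and 32.7 CPM on day 21. Its day 21 ratio in T-like cells was 0.857 (0.544 to 1.30), an interval that spans 1. These values are per UMI of the class and do not count its cells. T-like cells made up 24.7% (WT) and 6.22% (KO) of the cells kept on day 21. In NK-like cells Ifng stood at 314 and 215 CPM on day 0 and 32.1 and 28.5 CPM on day 21. Ifngr1, a chain of the receptor, fell in microglia-like cells from day 0 to day 13 (-0.88 ± 0.20, edgeR adjusted p = 0.00707), 1 of 9 tested, where 13.7% of genes fell. In the same comparison 4 of 9 rose, where 17.0% of genes did. Among these were the feedback inhibitor Socs1 (2.86 ± 0.37, edgeR adjusted p = 0.000207), the transcription factor Irf1 (2.18 ± 0.23, adjusted p = 6.41e-05) and the kinase Jak2 (1.22 ± 0.29, adjusted p = 0.00856). On day 21, 3 of 8 measured were lower in KO microglia-like cells, where 5.76% of genes were, among them Socs1 (ratio 0.323, 0.230 to 0.455) and Irf1 (0.512, 0.425 to 0.619). The receptor chains were not among them, with Ifngr1 at 628 (WT) and 875 (KO) CPM and Ifngr2 at 255 and 240 CPM.

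Genes of the type I interferon response rose in 12 of 12 tested from day 0 to day 13 in microglia-like cells by edgeR, where 17.0% of genes rose. On day 21, 8 of 11 measured were lower in the KO microglia-like library (median log2 -1.06), where 5.76% of genes were. Cmpk2, a mitochondrial nucleotide kinase, stood at 15.6 (WT) and 4.86 (KO) CPM, Rsad2, an antiviral enzyme, at 37.9 and 14.03 CPM, and Ifit1, which binds viral RNA, at 68.3 and 26.4 CPM. Other classes of day 21 differed. In conventional dendritic-like cells 8 of 12 were higher in KO (median log2 0.84), where 19.7% of genes were, and 0 lower. Those lower were 3 of 12 in monocyte/macrophage-like (7.74% of genes), 8 of 11 in T-like (7.38%) and 7 of 9 in neutrophil-like cells (18.6%). In microglia-like cells type I interferon signalling had 5 of 8 higher by edgeR on day 13, where 17.0% of genes were, among them Irf7 (4.94 ± 0.29, adjusted p = 2.13e-06). On day 21, 3 of 8 measured were lower in the KO library, Irf7, Usp18 and Stat2, where 5.76% of genes were. Of the autophagy conjugation genes, which help place the GTPases on vacuoles, 2 of 14 rose by day 13 by edgeR (Gabarap by 0.88 ± 0.17 and Becn1 by 0.68 ± 0.16). This was near the 17.0% of all genes that rose. Another 4 fell (Gabarapl1, Atg12, Map1lc3a and Sqstm1), where 13.7% of all genes fell. The median log2 difference of the list was -0.05, against -0.02 over all genes. On day 21, 0 of 12 measured were apart between KO and WT. Of the other family members, 4 of 7 tested rose by day 13 by edgeR, where 17.0% of genes rose, with F830016B08Rik at 6.81 ± 0.71 (adjusted p = 5.56e-05) and Gm4951 at 5.11 ± 0.25 (adjusted p = 7.67e-07). On day 21, 2 of 3 measured were lower in the KO library, where 5.76% of genes were, Gm4951 with a ratio of 0.575 (0.486 to 0.681).

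Among the genes whose log2(CPM + 1) pattern was most like that of the summed members, over 40 sums of a class in a library and among 7317 genes with a mean of 10 CPM or more, were Irf1 (Pearson r 0.92), Psmb10 (0.90), Gbp3 (0.90), Tap1 (0.89), Psmb8 (0.88), Herc6 (0.88) and Xaf1 (0.87). Among the members themselves r ran from 0.15 (Irgm2 and Ifi47) to 0.75 (Iigp1 and Igtp). The sums share libraries, depths and classes, so these values describe these data and carry no test.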

How the data were processed

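Single-cell 3' libraries were made with a droplet method, and the authors deposited raw UMI counts per gene and barcode, 1 table per library. Cell Ranger 2.0.2 and mm10 are named per the submitters' processing notes. The deposited counts ranged from 6321841 to 24243660 UMIs per library, with median depths of 3019 to 4368.5 UMIs per cell, and depth limits the precision of the low genes most.

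Barcodes with over 10% mitochondrial UMIs (23) or under 200 genes (0) were removed. Cells were classed by the number of detected markers (5 of 12 for microglia, 3 of 12 for monocytes/macrophages, 3 of 10 for T cells, 3 of 9 for B cells, 5 of 11 with 5% or more of UMIs for neutrophils). The gate thresholds were set after seeing the data. Cells passing for more than 1 lineage were left out as possible doublets, and no doublet caller was run. The percentage of cells exactly at the threshold was 1.48 for microglia-like, 12.1 for monocyte/macrophage-like, 3.04 for T-like and 45.1 for conventional dendritic-like cells. Leiden clustering (scanpy 1.11.5, leidenalg 0.10.2, resolution 1) on 2000 variable genes without the members and the interferon lists gave the same class to 94.8% of microglia-like, 96.6% of monocyte/macrophage-like, 83.3% of T-like and 20.1% of conventional dendritic-like cells, so that last class depends on how it was rebuilt.

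UMIs were summed per class and library with 50 or more cells. The test was edgeR 4.0.16 (R 4.3.3), quasi-likelihood, with genotype and day as terms and Benjamini-Hochberg adjustment over all genes tested at a threshold of 0.05, fitted per class. DESeq2 1.42.0 was an alternative. With 1 library per genotype and day, p-values measure the spread between libraries about an additive model. Within a day there was no test, and ratios carry exact conditional 95% intervals for counting error only. Class levels were tested per member rather than on the sum, because the members' order of classes differed. Promoter windows and transcripts were searched and aligned with biopython 1.88 (Python 3.11.15, scipy 1.17.1).

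The named genes are the 7 members, the genes of 6 lists that passed the threshold or otherwise the 3 largest differences at 10 CPM or more, and the 8 genes most alike in pattern. A gene that this rule names is not reported here. Members and lists were chosen with earlier results of these data known. Alternatives were another normalization and test, no filter on low counts, another pseudocount, a stricter gate, classes from clusters, another mitochondrial limit, shared barcodes left out and each library left out.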

Additional observations from a re-analysis of the deposited data

Results flagged for a closer look

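The KO to WT ratio pointed opposite ways on days 13 and 21 for 2 genes in microglia-like cells, with counting intervals that excluded 1 on both days. Iigp1, an effector, had a ratio of 1.22 on day 13 and 0.193 on day 21. Igtp, a regulator, had 1.14 on day 13 and 0.491 on day 21. In T-like cells Igtp had 1.25 on day 13 and 0.775 on day 21. Each value compares 1 library with 1 library, and the difference between the days was not tested. In microglia-like cells the clusters that held most cells differed between the day 21 libraries (cluster 13 held 53.6% of the WT and 8.82% of the KO cells), and the part of this in the ratios was not tested beyond the values within clusters.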

How the results depend on the processing

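A count was taken as moved when it changed by over 1.5 times, and a log2 ratio when it left its own counting interval. Of 459 values under alternatives, 398 stayed within these bounds and 61 moved. No ratio of the summed members past 1.5-fold changed sign, whereas 8 values of 6 ratios under 1.5-fold did, such as NK-like cells of day 21 (-0.07, against 0.27 with cluster classes). No paired analysis was possible because each genotype and day has 1 library, so replicate numbers pair nothing; the day term already sets the WT and KO libraries of a day against each other. Leaving out each library in turn, the members lower in KO over days ranged from 0 to 2 in microglia-like and neutrophil-like cells, and those higher in KO from 0 to 1 in T-like cells; the members higher on day 13 than on day 0 from 1 to 3 in neutrophil-like cells; those higher on day 21 than on day 0 from 2 to 5 in microglia-like, 1 to 2 in T-like, 0 to 3 in B-like and 0 to 3 in neutrophil-like cells; and those lower on day 21 than on day 13 from 1 to 5, 1 to 3, 0 to 3 and 1 to 3 in the same order. Classes with 4 libraries had no spare degree of freedom for this. In microglia-like cells the number of all genes called also changed between these fits, and the part of that in the member counts was not tested.

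Without a filter on low counts, the members lower in KO over days were 2 in microglia-like and 1 in monocyte/macrophage-like cells, 1 was higher on day 21 than on day 0 in B-like cells, and 4, 2 and 2 were lower on day 21 than on day 13 in microglia-like, monocyte/macrophage-like and B-like cells. Of all genes in microglia-like cells, 54 of 15666 were then lower in KO, against 0 of 10572 with the filter. Those lower on day 21 than on day 13 were then 378, against 53. With DESeq2, 3 and 1 were higher on day 21 than on day 0 in microglia-like and T-like cells, and 2 and 0 lower than on day 13. Of 10572 genes in microglia-like cells, DESeq2 called 559 higher on day 21 than on day 0 and 43 lower than on day 13. For day 21 against day 13, a stricter gate gave 0 in microglia-like and 2 in monocyte/macrophage-like cells, and cluster classes gave 3 in microglia-like cells. Chosen after seeing the data, leaving out cells with a marker of the other lineage gave 3, 0, 0, 1 and 1 in microglia-like, monocyte/macrophage-like, conventional dendritic-like, T-like and B-like cells, and leaving out clusters led by another class gave 4 in microglia-like and 4 in neutrophil-like cells. For the other classes and settings of this paragraph the share of all genes called is not given here. Those counts are therefore no result about the members.

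The log2 ratio of the summed members was 0.34 (cluster classes) and 0.29 (without clusters led by another class) in microglia-like cells of day 13, against 0.19. In neutrophil-like cells of day 21 it was -1.03 and -0.99, against -1.60. Without cells with a marker of the other lineage it was -0.20 in monocyte/macrophage-like cells of day 13 (-0.27 with them), -0.44 in B-like cells of day 13 (-0.22) and -0.77 in B-like cells of day 21 (-1.37), and 4 of 7 pairs of classes kept 1 sign in every library, against 9 of 21, since 2 classes rather than 4 still had enough cells in all 6 libraries. Thinned to 1500 UMIs, 55.1% (WT) and 62.4% (KO) of microglia-like cells had a UMI on day 13, and 37.4% and 19.4% on day 21. The causes were not tested. The stricter gate left conventional dendritic-like cells under 50 in 2 libraries. Tgtp1 and Tgtp2 had low counts in most classes, and the parts of depth and of their shared last bases in this were not tested.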
